A study of Homo sapiens with 6 samples.

Results

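The genes described here are 10 keratins of SNU16 cells, a human gastric carcinoma line, namely KRT7, KRT8, KRT18, KRT19, KRT20, KRT10, KRT15, KRT17, KRT23 and KRT80. They were chosen by their FPKM in the comparison described here, which was known when the list was drawn up, and were looked up by symbol among the 30716 genes of the deposited table. A row was found for 9 of them, and KRT23 was not analysed here. Total RNA was sequenced from ENO1-knockdown cells (shENO1, spelled shEno in the labels), infected with a lentivirus carrying an shRNA against ENO1 and selected with puromycin, and from the control group of the same line (shcon), whose hairpin is not described further. Each group had 3 libraries, and no label says that they came from separate cultures, so that p-values measure the spread between these libraries, which may be technical. The sequence of the ENO1 hairpin is not given in the sources used here. The value of each gene is in FPKM, fragments scaled to the length of the exons and the depth of the library, at an estimated 15572365 to 16963844 fragments per library. The ENO1 transcript itself was checked first, and stood at 27.0% of its shcon mean in shENO1 cells.

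Keratins build the intermediate filaments of epithelial cells. A filament assembles from pairs of an acidic type I chain and a basic type II chain, so that cells express members of both families. KRT8 (type II) and KRT18 (type I) form the primary pair of simple, single-layered epithelia such as that of the stomach, to which KRT7 (type II) and KRT19 (type I) are added in glandular and ductal cells. KRT20 (type I) marks intestinal and gastric surface epithelium, KRT10 (type I) is the keratin of differentiating epidermis, KRT15 (type I) that of basal cells, and KRT17 (type I) is known from basal and appendage cells and as a keratin induced by stress and wounding. KRT80 (type II) is a broadly expressed epithelial keratin found near desmosomes.

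Of the 9 keratins with a row, 6 were expressed at a mean of at least 0.5 FPKM, and all 6 had shENO1 libraries that did not overlap the shcon libraries. KRT7, KRT8, KRT18, KRT80 and KRT10 were lower in shENO1 cells, and KRT17 was higher. Since this contrast chose the list, the differences are given as a description with no test. With limma on log2(FPKM + 1) over all 15181 genes at a mean of at least 0.5 FPKM, 5 keratins passed an adjusted p of 0.05 as lower, where 14.4% of all genes did, and 1 passed as higher, where 15.1% of all genes did. Non-overlapping libraries were found for 21.5% of all genes in the lower direction and for 25.0% in the higher direction. The median log2 fold change was -0.995 over the 6 keratins and 0.03 over all genes. In RNA of a whole culture, fewer cells expressing a gene and less RNA of it per cell cannot be told apart.

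**Figure D1:**
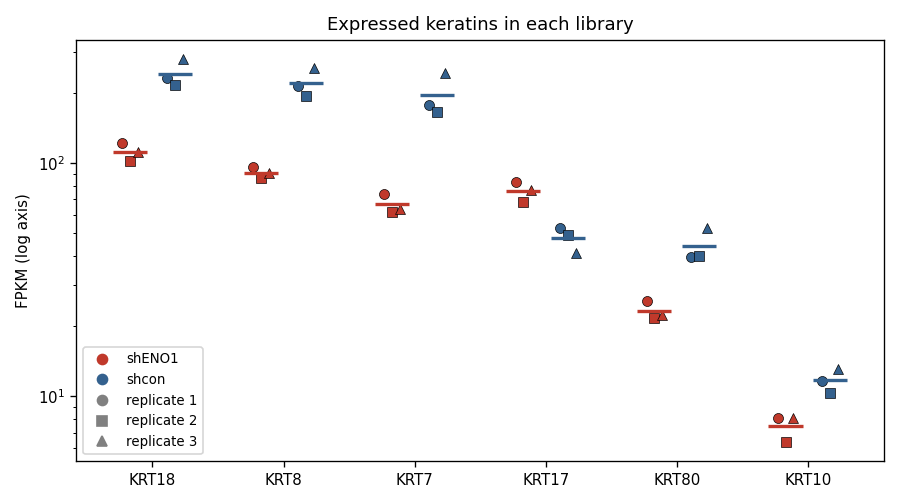
FPKM (log axis) of the 6 expressed keratins in each library, with shENO1 in red, shcon in blue, a marker shape per replicate number and a bar at the group mean (n = 3). KRT18, KRT8, KRT7, KRT80 and KRT10 lie lower in every shENO1 library than in any shcon library, and KRT17 lies higher.

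The simple-epithelial keratins share part of their coding sequence, and a stretch is shown here because it bears on whether reads can be assigned to single genes. The window below is the 90-base stretch of the KRT8 coding sequence, within exon 6, in which KRT7 differs least from it, printed as transcribed, 5′ to 3′, from GENCODE release 29 with coordinates on GRCh38. Capitals mark the bases that differ from KRT8. The KRT8 stretch lies at chr12:52899794-52899883 (minus strand), that of KRT7 at chr12:52243029-52243118 (plus strand, exon 6) and that of KRT80 at chr12:52173057-52173146 (minus strand, exon 6), while those of the KRT8 pseudogenes KRT8P12 and KRT8P33 lie at chr3:160568696-160568785 (plus strand) and chr5:123401381-123401470 (minus strand).
KRT8: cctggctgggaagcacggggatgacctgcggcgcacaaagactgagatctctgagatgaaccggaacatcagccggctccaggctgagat
KRT7: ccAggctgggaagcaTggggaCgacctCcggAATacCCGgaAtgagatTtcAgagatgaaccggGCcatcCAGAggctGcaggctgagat
KRT80: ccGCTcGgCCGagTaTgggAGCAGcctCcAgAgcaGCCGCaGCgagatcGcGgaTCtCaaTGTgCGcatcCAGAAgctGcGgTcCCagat
KRT8P12: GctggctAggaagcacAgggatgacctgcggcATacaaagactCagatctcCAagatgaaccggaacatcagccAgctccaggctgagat
KRT8P33: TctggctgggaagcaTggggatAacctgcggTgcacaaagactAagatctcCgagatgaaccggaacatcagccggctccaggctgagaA
KRT7 differed from KRT8 at 20 of the 90 bases, KRT80 at 44, KRT8P12 at 9 and KRT8P33 at 7. Over the aligned coding sequences, KRT7 and KRT8 were identical at 75.2% of 1355 bases, the closest pair among the 6 expressed keratins, and KRT8 and KRT18 at 62.8% of 1170 bases. The expressed keratins thus differ more from each other than KRT8 does from these pseudogenes. KRT8P26, with 13 differences in the window, and KRT8P3, with 97.1% identity to the KRT8 coding sequence, are not printed.

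Among the type I chains, the matching window is the 90-base stretch of KRT18 in which KRT17 differs least, and it is shown because these genes moved in opposite directions. It lies in exon 2 of KRT18 (chr12:52949411-52949500, plus strand), in exon 1 of KRT17 (chr17:41624171-41624260, minus strand) and in exon 1 of KRT10 (chr17:40822061-40822150, minus strand), with capitals for bases that differ from KRT18.
KRT18: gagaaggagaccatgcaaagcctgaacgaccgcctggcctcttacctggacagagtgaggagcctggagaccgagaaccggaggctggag
KRT17: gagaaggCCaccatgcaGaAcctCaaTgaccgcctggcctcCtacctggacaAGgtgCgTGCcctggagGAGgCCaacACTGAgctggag
KRT10: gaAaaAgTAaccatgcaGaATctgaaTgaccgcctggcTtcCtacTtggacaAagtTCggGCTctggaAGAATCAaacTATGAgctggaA
KRT17 differed from KRT18 at 23 of these bases and KRT10 at 30. Over the whole alignment of their coding sequences, KRT17 and KRT18 were identical at 64.4% of 1252 bases.

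KRT7 had the largest difference of the 6. This type II keratin of glandular and ductal epithelium (ENSG00000135480, chr12:52232520-52252186, plus strand) was at 73.6, 61.9 and 63.6 FPKM in the shENO1 libraries, against 177, 166 and 242 FPKM in the shcon libraries. The highest shENO1 library thus lay far under the lowest shcon library, and shcon replicate 3 stood above the other controls. The shENO1 mean of 66.4 ± 6.32 FPKM was 34.03% of the shcon mean of 195 ± 41.0 FPKM (SD of n = 3 libraries per group). The log2 fold change of log2(FPKM + 1) was -1.53 (standard error 0.15). Behind these values stood 4805, 4201 and 3961 fragments in shENO1 libraries and 11542, 10610 and 16090 fragments in shcon libraries, so that counting error was small beside the spread between libraries.

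KRT8, the type II partner of KRT18 (ENSG00000170421, chr12:52897187-52949954, minus strand), was at 96.5, 85.9 and 90.4 FPKM in shENO1 cells, against 213, 193 and 255 FPKM in shcon cells. Its shENO1 mean was 41.3% of the shcon mean, a change of -1.26 on the log2 scale (standard error 0.12). KRT18 (ENSG00000111057, chr12:52948871-52952906, plus strand) was at 122, 101 and 112 FPKM in shENO1 cells, against 231, 215 and 278 FPKM in shcon cells. It stood at 46.3% of the shcon mean, with a change of -1.10 on the log2 scale (standard error 0.12). Partners of a filament thus moved in the same direction by similar amounts. The KRT8 to KRT18 ratio of FPKM was nonetheless lower in each shENO1 library, at 0.794, 0.847 and 0.810, than in the shcon libraries, at 0.925, 0.897 and 0.919.

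KRT80 (ENSG00000167767, chr12:52168996-52192014, minus strand) had 25.5, 21.6 and 22.3 FPKM in shENO1 cells, against 39.5, 39.8 and 52.7 FPKM in shcon cells. This type II keratin was at 52.6% of its shcon mean (-0.89 on the log2 scale, standard error 0.13). KRT10, the epidermal type I keratin (ENSG00000186395, chr17:40818117-40822614, minus strand), had 8.07, 6.38 and 8.05 FPKM in shENO1 cells, against 11.6, 10.4 and 13.1 FPKM in shcon cells. Its difference was the smallest of the lower keratins, at 64.0% of the shcon mean (-0.58 on the log2 scale, standard error 0.12). KRT10 no longer passed the threshold when shENO1 replicate 2 was left out, where its log2 fold change was -0.48.

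KRT17, the stress-associated type I keratin (ENSG00000128422, chr17:41619442-41624842, minus strand), went the other way. Its level was 82.5, 68.2 and 76.3 FPKM in shENO1 cells, against 52.6, 49.2 and 41.3 FPKM in shcon cells. The shENO1 mean of 75.7 ± 7.21 FPKM was 1.59 times the shcon mean of 47.7 ± 5.79 FPKM (SD of n = 3 libraries per group), with a change of 0.66 on the log2 scale (standard error 0.12). The lowest shENO1 library lay above the highest shcon library. In shENO1 cells KRT17 was the third most abundant keratin per kilobase, with libraries that overlapped those of KRT7, whereas in shcon cells it lay under KRT7 and overlapped KRT80.

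The replicates varied together across these genes. Among the shENO1 libraries, replicate 1 was highest and replicate 2 lowest for each of the 6 keratins. Among the shcon libraries, replicate 3 was highest for the 5 keratins that were lower in shENO1 cells and lowest for KRT17. ENO1 had the same order, with 99.5, 84.9 and 91.1 FPKM in shENO1 replicates 1, 2 and 3 and 323, 312 and 386 FPKM in shcon replicates 1, 2 and 3. Without shcon replicate 3 the log2 fold changes were -1.36 for KRT7 and 0.56 for KRT17. Across the 6 libraries, which share the group difference, the Pearson correlation was 0.998 between KRT7 and KRT8 and between KRT8 and KRT18, and -0.94 between KRT7 and KRT17.

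The transcripts of the 6 keratins had a GC content of 52.0% (KRT10) to 62.9% (KRT7). The comparison was repeated after smooth trends with GC content and with exon length had been taken out of each library, called GC and length trends here. With them removed, the log2 fold change was -1.08 for KRT7, -1.10 for KRT8, -0.85 for KRT18, -0.66 for KRT80 and -0.37 for KRT10. KRT17 moved the other way, to 1.00. The 6 directions and the 6 calls were kept, where 10.2% of all genes passed as lower and 12.0% as higher in that fit. KRT7 and KRT8 thus had near-equal values with the trends removed.

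**Figure D2:**
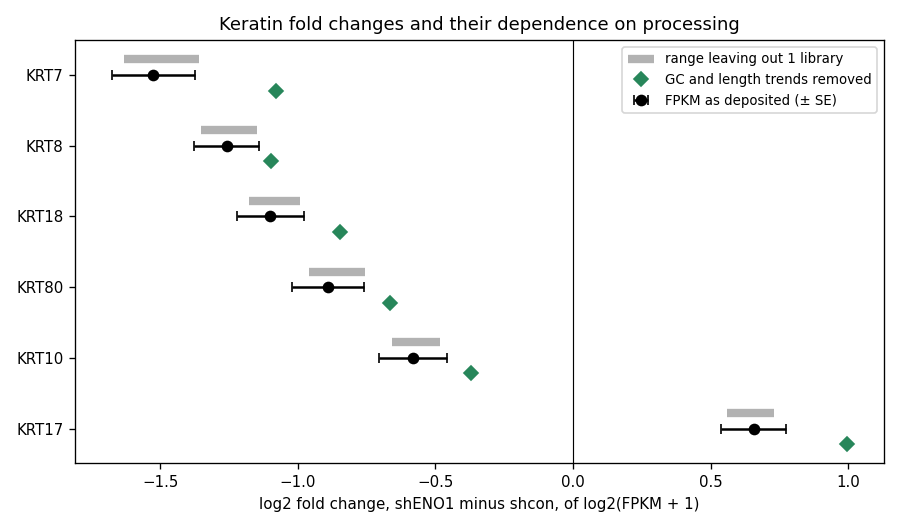
Log2 fold change (shENO1 minus shcon, of log2(FPKM + 1)) of the 6 expressed keratins with the deposited FPKM (black, ± standard error), with the GC and length trends removed (green), and the range when 1 library at a time is left out (grey). KRT7 is at -1.53 and at -1.08 with the trends removed, KRT17 is at 0.66 and at 1.00, and no value crosses 0.

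Set together by type, the keratin transcripts of shENO1 cells had another balance. The 3 type II keratins of the list summed to 196, 170 and 176 FPKM in shENO1 libraries, against 430, 398 and 550 FPKM in shcon libraries. The type I keratins summed to 212, 176 and 196 FPKM in shENO1 libraries, against 295, 275 and 333 FPKM in shcon libraries. The type II sum was therefore at 0.393 times and the type I sum at 0.648 times its shcon mean. The ratio of type II to type I was 0.921, 0.962 and 0.900 in shENO1 libraries, against 1.46, 1.45 and 1.65 in shcon libraries, with no overlap of the groups. KRT17 made up 38.9%, 38.7% and 38.9% of the type I sum in shENO1 cells, against 17.8%, 17.9% and 12.4% in shcon cells. These are sums over genes listed with their values known, and no test was applied.

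**Figure D3:**
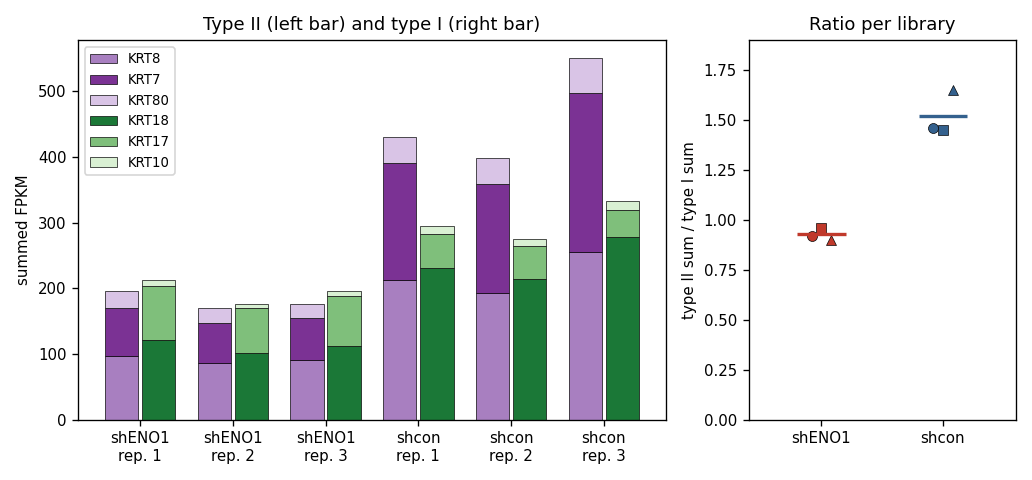
Left, summed FPKM of the type II (purple) and type I (green) keratins of the list in each library, stacked by gene, and right, the ratio of the sums with a bar at the group mean (n = 3). The ratio lies between 0.900 and 0.962 in shENO1 libraries and between 1.45 and 1.65 in shcon libraries.

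Levels of different genes are comparable only per length, and the length behind FPKM was that of all annotated exons. For KRT8 whole fragments were obtained at 6881 bases, the union of its exons, where the coding sequence takes 1449 bases. With the length of the principal transcript of each gene in its place, the ratio of type II to type I was 1.34 ± 0.0439 in shENO1 cells and 2.16 ± 0.140 in shcon cells (SD of n = 3 libraries per group). The level of the ratio depends on this choice and the relative difference between the groups was 0.623 times in place of 0.610 times. The order of the keratins by FPKM, the KRT8 to KRT18 ratio and the KRT17 share of the type I sum rest on the exon lengths too. Over the shENO1 libraries together, KRT7 had 12967 fragments and KRT17 had 11061.

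KRT19, KRT20 and KRT15 were at or near 0 in all libraries. KRT19, elsewhere a main type I keratin of simple and glandular epithelium (ENSG00000171345, chr17:41523617-41528308), was listed at 0 in all 3 shENO1 libraries and in shcon replicates 1 and 2, and at 0.051 FPKM, about 2 fragments, in shcon replicate 3. A level of up to 0.0825 FPKM, worth 3 fragments in the shallowest library, could not be told from 0 for this gene. KRT20 (ENSG00000171431) had 4, 6 and 0 fragments in shENO1 libraries, against 2, 3 and 6 fragments in shcon libraries. KRT15 (ENSG00000171346) had 1, 3 and 5 fragments in shENO1 libraries, against 2, 0 and 9 fragments in shcon libraries. No difference was detectable for KRT19, KRT20 or KRT15 at this depth, and none entered the test over all genes. These floors cover counting error only.

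Markers of epithelial and other cell types were looked up from a short list. The claudins CLDN7 and CLDN4 were expressed, while the epithelial adhesion genes EPCAM (0.819 to 0.970 FPKM in shENO1 libraries, 1.09 to 1.59 FPKM in shcon libraries) and CDH1 (0.602 to 0.776 FPKM in shENO1 libraries, 0.733 to 1.21 FPKM in shcon libraries) were low and intestinal CDH17 was near 0. Of 5 fibroblast markers with a row, 4 reached 0.5 FPKM, among them LUM and DCN, with a sum of 14.5 to 15.1 FPKM in shENO1 libraries and 22.2 to 29.3 FPKM in shcon libraries. Of 3 endothelial markers, CDH5 alone did, and their sum was 3.87 to 5.00 FPKM in shENO1 libraries and 9.32 to 16.4 FPKM in shcon libraries. These sums were lower in each shENO1 library, as was the epithelial sum (20.3 to 27.6 FPKM in shENO1 libraries, 32.0 to 45.0 FPKM in shcon libraries). Within the epithelial sum CLDN7 was at 16.1, 11.4 and 11.8 FPKM in shENO1 libraries, against 36.2, 32.1 and 20.3 FPKM in shcon libraries. CLDN4 did not share that difference, at 9.75, 7.56 and 7.02 FPKM in shENO1 libraries, against 5.79, 5.95 and 9.80 FPKM in shcon libraries. Within the fibroblast sum LUM and DCN were lower in each shENO1 library than in any shcon library. COL1A1 overlapped, at 5.56, 4.35 and 4.19 FPKM in shENO1 libraries, against 7.75, 7.15 and 3.45 FPKM in shcon libraries. COL3A1 stayed under 0.5 FPKM. The leukocyte sum overlapped between the groups, with PTPRC and CD14 under 0.5 FPKM. The stratified epithelium sum was 0.382 to 0.404 FPKM in shENO1 libraries and 0.195 to 0.209 FPKM in shcon libraries, with TP63 and KRT14 under 0.5 FPKM. The part of such cells or programmes in the keratin values was not tested. KRT7, KRT8 and KRT18 were thus high in cells with little EPCAM, CDH1, KRT19 or KRT20 transcript.

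Of 13 further keratin genes in the table, 3 reached a mean of 0.5 FPKM, namely the hair keratins KRT86 (type II) and KRT34 (type I) and the wound-associated type I keratin KRT16. By limma 0 of these 3 passed the test in either direction, where 29.5% of all genes did. An unadjusted p under 0.05 was found for 0 of them. KRT16, which lies beside KRT17 on chromosome 17, was at 0.618, 1.00 and 0.700 FPKM in shENO1 cells, compared with 0.248, 0.682 and 0.753 FPKM in shcon cells, with overlapping groups. Its log2 fold change of 0.19 became 0.68 with the GC and length trends removed, and passed there with a replicate block. That of KRT34 was 0.17 and became 0.48, and that of KRT86 was -0.22 and turned to 0.29. Leaving out 1 library also moved these values, to 0.04 for KRT16 without shcon replicate 1 (0.10 without shENO1 replicate 2), and to -0.11 for KRT86 without shENO1 replicate 3. KRT34 was at 0.067 without shcon replicate 2, 0.094 without shENO1 replicate 3, 0.103 without shcon replicate 1 and 0.324 without shcon replicate 3. The other 10 stayed at or under 0.796 FPKM in every library, among them the basal keratin KRT14. Adding all keratin genes of the table gave 0.609 in place of 0.610 times for the type II to type I ratio relative to shcon.

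Several keratin genes overlap others, and whether reads were counted by strand is not given in the sources used here. KRT7 shares bases with the antisense gene KRT7-AS, with the pseudogene KRT87P and with KRT86. KRT7-AS was at 4.31, 3.69 and 2.77 FPKM in shENO1 cells, against 6.71, 5.66 and 9.02 FPKM in shcon cells, a change of -0.82 on the log2 scale (standard error 0.18, adjusted p = 0.015 by limma). Each of 4 settings alone ended its call, namely leaving out shENO1 replicate 2, leaving out shENO1 replicate 3, using no filter on low values, and a replicate block together with removal of the GC and length trends (-0.57). KRT87P was at 3.03, 2.09 and 2.35 FPKM in shENO1 cells, against 3.56, 3.48 and 3.62 FPKM in shcon cells, and passed as lower (-0.39 on the log2 scale, adjusted p = 0.0401 by limma). With the GC and length trends removed it passed as higher, at 0.30, and its call ended with no filter on low values, by limma-voom, and on leaving out any single library but shENO1 replicate 1, so that no direction is given for it. Without strand, reads from KRT7 and from KRT7-AS cannot be told apart. KRT8 and KRT18 lie head to head on opposite strands and share 1084 bases.

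Apart from KRT87P and KRT42P, which have symbols of their own, the table holds 55 numbered pseudogene copies of keratins, of which 20 derive from KRT8 and 30 from KRT18, and which can share reads with their parents. The KRT8 pseudogenes summed to 11.4 ± 1.16 FPKM in shENO1 cells, compared with 12.4 ± 0.776 FPKM in shcon cells, and those of KRT18 to 1.49 ± 0.222 FPKM in shENO1 cells, compared with 2.14 ± 1.00 FPKM in shcon cells (SD of n = 3 libraries per group). Of these numbered copies 4 reached a mean of 0.5 FPKM, all of KRT8. KRT8P3, with 97.1% identity to the KRT8 coding sequence the closest of the 4, was lower like KRT8, at 0.676, 0.488 and 1.20 FPKM in shENO1 cells, against 2.203, 1.81 and 2.45 FPKM in shcon cells (-0.84 on the log2 scale, adjusted p = 0.011 by limma), a call that ended with the GC and length trends removed (-0.37). KRT8P33, with 95.8% identity, had a log2 fold change of 0.015, KRT8P26 (87.2%) of 0.12 and KRT8P12 (90.5%) of 0.23, and none of these passed. With the trends removed, KRT8P12 and KRT8P33 passed as higher, at 0.59 and 0.50, and KRT8P26 was at 0.64. Of all genes, 12% passed as higher and 10.2% as lower in that fit, against 15.1% and 14.4% with the trends kept. KRT8P12 also passed without shcon replicate 3. KRT8P3 was thus the 1 expressed copy called lower, and whether reads of KRT8 were assigned to it was not tested.

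**Figure D4:**
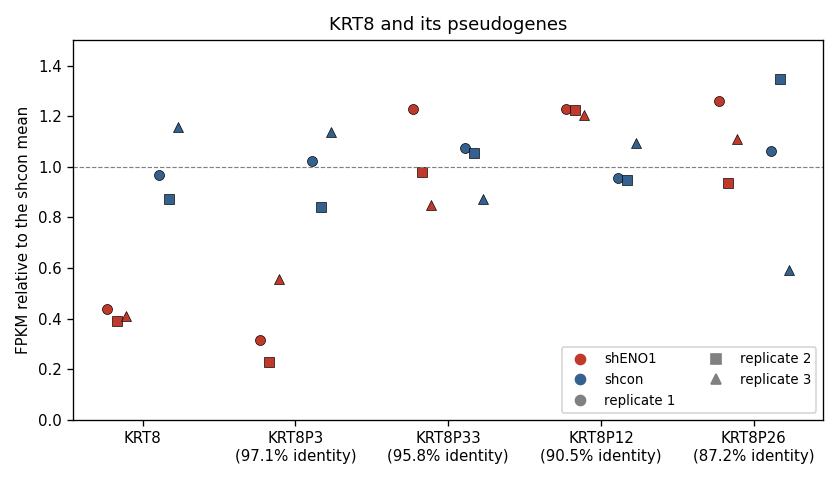
FPKM of KRT8 and of its 4 expressed pseudogenes in each library, relative to the shcon mean of the same gene (dashed line at 1), with the identity of each pseudogene to the KRT8 coding sequence. KRT8 and KRT8P3 lie lower in every shENO1 library than in any shcon library, whereas the shENO1 and shcon libraries overlap for KRT8P33 and KRT8P26 and KRT8P12 lies higher.

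Beyond the keratins, 10 other cytoskeletal and nuclear filament genes were tested. Of these, 1 was higher in shENO1 cells, 2 were lower and 7 did not pass (median log2 fold change 0.01, against 0.03 over all genes). Among all genes tested, 15.1% passed as higher and 14.4% as lower. With the GC and length trends removed, 3 of the 10 passed as higher and 0 as lower, where 12% and 10.2% of all genes did. VIM, the mesenchymal filament vimentin, was at 48.1, 52.2 and 52.8 FPKM in shENO1 cells, against 38.2, 35.4 and 42.3 FPKM in shcon cells (0.40 on the log2 scale, adjusted p = 0.0201 by limma), a call lost when any of 4 libraries was left out, shENO1 replicates 2 and 3 and shcon replicates 1 and 2. LMNA, which encodes the nuclear lamins A and C, was at 93.0, 74.0 and 78.5 FPKM in shENO1 cells, against 129, 116 and 134 FPKM in shcon cells (-0.63 on the log2 scale, adjusted p = 0.008 by limma). LMNB2, a B-type lamin, had a log2 fold change of -0.40. Neither lamin passed with the GC and length trends removed, at -0.28 for LMNA and -0.04 for LMNB2. LMNB2 also lost its call with no filter on low values and without shENO1 replicate 2, shENO1 replicate 3, shcon replicate 1 or shcon replicate 2.

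Desmosomes anchor keratin filaments at cell contacts, and of 8 desmosome genes tested 2 were higher, 2 lower and 4 did not pass (median 0.21). Among all genes tested, 15.1% were higher and 14.4% lower. DSP, the plakin that binds keratin filaments directly, was at 47.8, 51.4 and 43.3 FPKM in shENO1 cells, against 30.4, 33.7 and 23.2 FPKM in shcon cells (0.70 on the log2 scale, adjusted p = 0.0118 by limma). The desmosomal cadherin DSG2 was at 49.2, 54.9 and 53.2 FPKM in shENO1 cells, against 28.4, 32.8 and 29.7 FPKM in shcon cells (0.77 on the log2 scale, adjusted p = 0.00335 by limma). Both rose while KRT8 and KRT18 were lower, and both kept their calls with the trends removed, at 0.56 for DSP and 0.50 for DSG2. DSP lost its call without shENO1 replicate 2. The armadillo proteins PKP3 (plakophilin 3) and JUP (plakoglobin) were lower at -0.74 and -0.42 on the log2 scale, though not with the trends removed, at -0.14 and -0.05. PKP3 also lost its call without shENO1 replicate 2, and JUP without shENO1 replicates 2 or 3 or shcon replicates 1 or 2, with quantile normalization (-0.16), with no filter on low values and by eBayes without a trend.

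Of 8 plakin and hemidesmosome genes tested, 1 was higher and 1 lower (median -0.32), where 15.1% and 14.4% of all genes were. With the trends removed, 0 passed as higher and 3 as lower, where 12% and 10.2% of all genes did. PPL, the plakin periplakin, was at 20.9 ± 2.29 FPKM in shENO1 cells, compared with 32.2 ± 3.01 FPKM in shcon cells (SD of n = 3 libraries per group), at -0.60 on the log2 scale (adjusted p = 0.009 by limma) and a kept call at -0.34 with the trends removed. ITGA6, the integrin alpha 6 of hemidesmosomes, was higher at 0.48, a call that ended with the trends removed (0.23) and without any of 4 single libraries, shENO1 replicates 2 and 3 and shcon replicates 1 and 2.

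Of 12 genes for proteins that bind or modify keratins, 2 were higher and 4 lower (median -0.19), where 15.1% and 14.4% of all genes were. With the trends removed, 0 passed as higher and 2 as lower, where 12% and 10.2% of all genes did. HSPB1, a small heat shock protein that associates with keratin filaments, was at 124, 78.0 and 77.6 FPKM in shENO1 cells, against 230, 200 and 244 FPKM in shcon cells (-1.29 on the log2 scale, adjusted p = 0.00473 by limma). STUB1, a ubiquitin ligase that works with chaperones, had -0.96, SFN, the epithelial 14-3-3 protein that binds keratins, had -0.90, and TRADD, the TNF receptor adaptor that binds KRT18, had -0.73. With the trends removed HSPB1 (-0.62) and STUB1 (-0.31) remained lower, whereas SFN (-0.26) and TRADD (-0.11) did not pass. TRADD also lost its call without shENO1 replicate 2, shENO1 replicate 3 or shcon replicate 1.

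Among 7 transcription factors of epithelial cells tested, 2 were higher and 2 lower (median 0.26), where 15.1% and 14.4% of all genes were. KLF5, a factor of proliferating gut epithelium, was at 148, 149 and 157 FPKM in shENO1 cells, against 89.9, 92.2 and 73.6 FPKM in shcon cells (0.83 on the log2 scale, adjusted p = 0.00384 by limma). ELF3, an ETS factor of epithelial differentiation, was at 19.8, 16.7 and 17.4 FPKM in shENO1 cells, against 29.6, 27.1 and 29.9 FPKM in shcon cells (-0.66 on the log2 scale, adjusted p = 0.00481 by limma). Neither factor had overlapping groups, and both kept their calls with the trends removed, at 0.76 and -0.51. KLF4, a factor of differentiated epithelium, was lower at -0.56, though neither without shENO1 replicate 2 nor with a replicate block once the GC and length trends were removed (-0.36), and the ETS factor EHF was higher at 0.37, a call that ended in 8 of 17 alternatives, among them leaving out any single library but shcon replicate 3. Of 2 cornified envelope genes tested, CNFN was lower at -0.93, though not with the trends removed (-0.30), and TGM1 did not pass.

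**Figure D5:**
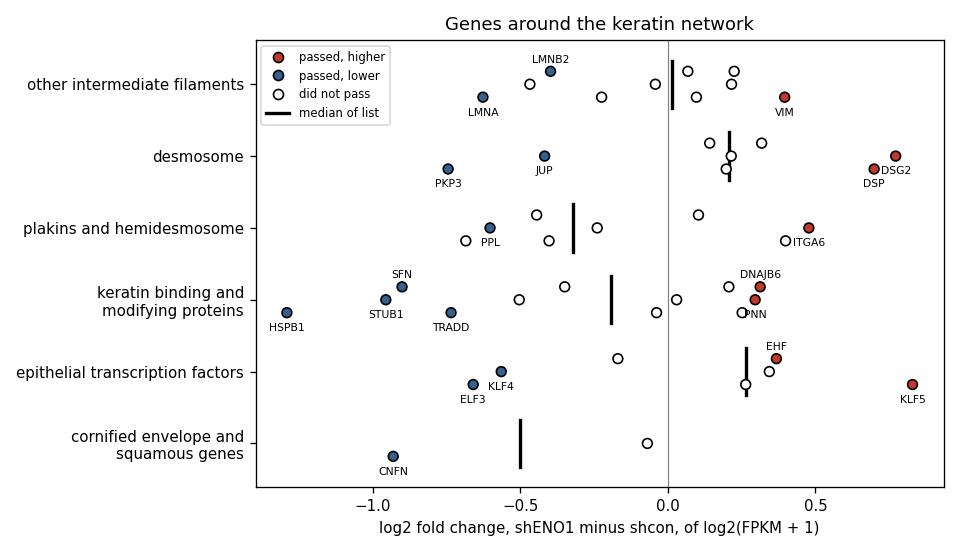
Log2 fold change (shENO1 minus shcon, of log2(FPKM + 1)) of each tested gene in 6 lists around the keratin network, filled where it passed an adjusted p of 0.05 by limma, with a bar at the median of the list. DSG2 at 0.77, DSP at 0.70 and KLF5 at 0.83 lie on the higher side, and HSPB1 at -1.29 is the lowest.

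The genes with the pattern most like that of the keratins over the 6 libraries were sought among those at a mean of at least 5 FPKM. The highest Pearson correlations were 0.9995 with CCN1, 0.9994 with CLPTM1L and 0.998 with KRT8 for KRT7, and 0.9994 with CLPTM1L, 0.9991 with CCN1 and 0.9984 with SMPD1 for KRT18. For KRT8 they were 0.9995 with TARS2 and 0.9987 with CLPTM1L and FAM32A. CCN1, a secreted matricellular protein, was at 12.1 FPKM in shENO1 cells, compared with 31.3 FPKM in shcon cells. These correlations are over 6 libraries that share the group difference and describe likeness only.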

How the data were processed

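FPKM per Ensembl gene and library were computed and deposited by the authors, whose processing notes name cutadapt, featureCounts, MultiQC and GRCh38. The aligner, the annotation release, the strand setting and the FPKM program are not named by any source used here. Depth was estimated from genes of 1 exon, whose low values were whole multiples of 1 fragment (tolerance 0.05). Genes at a mean of at least 0.5 FPKM were compared as log2(FPKM + 1), shENO1 minus shcon, with lmFit and eBayes with a trend (limma 3.58.1, R 4.3.3), with Benjamini-Hochberg adjusted p-values and a threshold of 0.05. A fold change on this scale understates that of low genes. GC content (longest transcript) and exon length came from GENCODE release 29, on the build of the files. The GC and length trends were fitted as natural splines (4 degrees of freedom). Coding sequences were aligned with Biopython 1.88. The fit was also run on simulated independent genes. These lacked the GC and length trends and the shared variation of replicates, so that run does not test the calls in these libraries.

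The keratins, lists and tests were chosen with earlier results of these data known. Named in the text are the listed keratins, ENO1, expressed keratins and keratin pseudogenes, of each other list the genes that passed, at most 4 by size of change (the 2 most abundant if none passed), and the 3 genes most correlated with KRT7, KRT8 and KRT18. KRT7-AS, KRT87P, KRT42P, TGM1 and KRT14 and the marker genes were named after their values were seen. Equally numbered libraries deviated together from their group means, though weakly (correlations 0.23, 0.118 and 0.256, against -0.208 to 0.0607 for unlike numbers). A model blocked on replicate is therefore among the alternatives, while the values and p-values printed come from the model without it. Also tried were pseudocounts of 0.1 and 0.5, other filters, eBayes settings and scalings, leaving out each library and, added after seeing the data, limma-voom on estimated fragments and principal transcript lengths.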

Additional observations from a re-analysis of the deposited data

How the results depend on the processing

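The 6 expressed keratins kept their direction in 108 of 108 alternative fits and their call in 107, the exception being KRT10 without shENO1 replicate 2 (-0.48). Other filters, eBayes settings and the replicate block leave a fold change as it is (-1.53 for KRT7), so their directions could not differ. All alternatives reuse the libraries by which the list was chosen, so these counts describe dependence on the processing and are no independent support. Over the alternatives the log2 fold change ranged from -1.63 to -1.08 for KRT7, from -1.35 to -1.04 for KRT8, from -1.18 to -0.85 for KRT18, from -0.96 to -0.66 for KRT80, from -0.66 to -0.37 for KRT10 and from 0.56 to 1.00 for KRT17. The number of keratins called lower was 4 to 5 and of those called higher 1. A replicate block (log2 fold change of KRT7 -1.53) alone changed the call of no expressed keratin, expressed keratin pseudogene or KRT7-AS and of no list gene given as higher or lower in the text, and gave 2927 higher and 2711 lower genes in all. With no filter on low values, the numbers of all genes called were 1402 higher and 1302 lower, against 2289 and 2188 with the filter. Leaving out 1 library gave 753 to 3028 higher and 756 to 2799 lower genes, the lowest without shENO1 replicate 2. Without KRT7 the type II to type I ratio of shENO1 cells relative to shcon was 0.669, in place of 0.610, since KRT7 is part of the type II sum. Leaving out 1 library moved it to 0.596 to 0.638. Of genes that did not pass, KRT86 (-0.22) turned to 0.29 with the GC content and exon length trends removed, with or without a block. KRT8P33 (0.015) turned to -0.012 with quantile normalization and with median-of-ratios scaling (-0.008), to -0.096 without shENO1 replicate 1 and to -0.058 without shcon replicate 3, with a range of -0.096 to 0.109 when leaving out 1 library. KRT8P26 (0.12) turned to -0.083 without shcon replicate 3 and was 0.272 without shcon replicate 2. Among genes that passed, KRT87P (-0.39) turned to 0.30 with the trends removed, with or without a block. With the trends removed, adding the block ended the calls of KLF4 and KRT7-AS and added that of KRT16. The cause was not tested. Depth limits KRT19, KRT20 and KRT15, which had at most 9 fragments in a library.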
